A study of Mus musculus with 14 samples.

Results

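Immunoglobulin variable (V) segments are the gene pieces from which B cells build the part of an antibody that touches antigen. All rows of the deposited gene table with the biotype IG_V_gene and a name starting Ighv, Igkv or Iglv were taken, which gave 173 of 24270 genes. Of these, 86 belong to the heavy chain, 84 to the kappa light chain and 3 to the lambda light chain. One further row of that biotype, of 174 in the table, has another name (Gm43218) and was not a member. Lungs of C57BL/6 mice were sequenced as polyadenylated RNA in 14 libraries: 3 from saline-treated Mcemp1+/+ (wild-type, WT) mice, 4 from ovalbumin (OVA)-challenged WT mice, 3 from saline-treated Mcemp1-/- (knockout, KO) mice and 4 from OVA-challenged KO mice. Mice were 6 to 8 weeks old, were sensitized with intraperitoneal OVA on days 1, 4 and 7, and were challenged through the nose weekly for 8 weeks from 5 days later, while controls received saline at every step. Mcemp1 encodes a membrane protein of mast cells and was disrupted in every cell of the KO mice by a frameshift deletion made with CRISPR/Cas9, so the genotype is not restricted to 1 cell type. The labels do not say that the libraries of a group came from separate animals, so every p-value refers to the spread among these samples only, part of which may be technical.

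A B cell joins 1 heavy V segment to D and J segments, and 1 light V segment to a J segment, so each B cell clone carries its own V pair. Naive B cells transcribe this rearranged gene at a low level, whereas plasma cells transcribe it at a very high level, and a few expanded plasma cell clones can supply most of the V transcript of a tissue. In chronic allergic inflammation of the airways, class-switched plasma cells and B cell aggregates are known to settle in the lung. The summed V level, the number of segments that share it and the segments that lead it were therefore described for every library.

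The deposited values are read counts that the authors had normalized. Each library's lowest value stands for an offset of 1 read, and values divided by it give estimated reads, of which the libraries held 47.2 to 67.1 M. The OVA KO libraries were deeper (57.1 to 67.1 M) than the OVA WT libraries (47.2 to 49.4 M). Mcemp1 was at 9.84 to 20.1 in the 7 WT libraries and at 3.5 to 4.98 in the 7 KO libraries, without overlap. The value covers the whole transcript and not only the deleted bases, so it does not measure the deletion itself. Summed lung markers (Sftpc, Sftpb, Ager, Scgb1a1 and Pecam1) were at 32786 to 39496 after saline and 14552 to 23207 after OVA in WT. In KO they were at 34962 to 41206 and 22554 to 31969. Among them, Scgb1a1 was at 20265 to 24511 after saline and 4346 to 7511 after OVA in WT, and at 19857 to 29526 and 7332 to 16109 in KO. OVA WT 2 stood apart: its 10 B cell markers summed to 856 against 112 to 267 in the other 13 libraries, its 6 T cell markers to 197 against 26.2 to 62.9, and Glycam1, a product of high endothelial venules of lymphoid tissue, was at 31.2 against at most 0.272. Glycam1 is from a list of 3 venule genes. Of the others, Madcam1 was at 1.9 against at most 0.114, but Chst4, at 4.48, lay within the 4.39 to 11.1 of the other libraries. The sum of 6 heart muscle genes was 645 to 1125 after saline and 52.1 to 138 after OVA in WT, and 311 to 599 and 119 to 398 in KO. The part of these differences in the V results was not tested.

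Shown here are the sequences of 6 segments that led the heavy or kappa locus of a library. Ighv1-26 and Igkv10-96 led the heavy or kappa locus in the most libraries, Ighv11-2 and Igkv14-126 led in OVA KO 1, and Ighv8-12 and Igkv1-88 led in OVA WT 4. Each sequence is the germline segment of GENCODE M21 on GRCm38, 5′ to 3′, limited to its last 298 to 300 bases, and the capitals mark the bases from the conserved cysteine codon to the segment's end, where the third complementarity-determining region begins. Rearranged genes continue from these capitals into D or J sequence that no row of the table measures. The heavy segments lie on chromosome 12 and the kappa segments on chromosome 6.
Ighv1-26: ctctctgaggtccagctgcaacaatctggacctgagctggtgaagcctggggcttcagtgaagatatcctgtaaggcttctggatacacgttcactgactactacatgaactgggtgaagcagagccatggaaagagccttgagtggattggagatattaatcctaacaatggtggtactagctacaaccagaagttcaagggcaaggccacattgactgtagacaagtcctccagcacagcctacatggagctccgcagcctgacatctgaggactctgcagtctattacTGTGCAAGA
Igkv10-96: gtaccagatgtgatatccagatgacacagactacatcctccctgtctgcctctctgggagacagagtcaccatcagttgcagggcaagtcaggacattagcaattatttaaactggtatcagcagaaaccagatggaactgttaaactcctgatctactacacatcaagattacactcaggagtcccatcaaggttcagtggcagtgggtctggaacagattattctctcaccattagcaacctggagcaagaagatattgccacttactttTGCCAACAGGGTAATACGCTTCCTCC
Ighv11-2: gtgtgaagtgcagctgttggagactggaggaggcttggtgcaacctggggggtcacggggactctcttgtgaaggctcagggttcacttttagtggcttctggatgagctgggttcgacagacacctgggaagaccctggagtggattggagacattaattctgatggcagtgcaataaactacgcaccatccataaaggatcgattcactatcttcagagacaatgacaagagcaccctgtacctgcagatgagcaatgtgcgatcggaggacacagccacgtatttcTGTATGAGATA
Igkv14-126: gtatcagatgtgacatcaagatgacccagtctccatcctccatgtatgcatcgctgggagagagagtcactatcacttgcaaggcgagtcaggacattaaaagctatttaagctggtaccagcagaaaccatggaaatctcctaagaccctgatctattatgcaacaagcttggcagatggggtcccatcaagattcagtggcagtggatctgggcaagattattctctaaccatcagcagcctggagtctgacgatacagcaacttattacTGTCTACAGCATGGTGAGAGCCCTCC
Ighv8-12: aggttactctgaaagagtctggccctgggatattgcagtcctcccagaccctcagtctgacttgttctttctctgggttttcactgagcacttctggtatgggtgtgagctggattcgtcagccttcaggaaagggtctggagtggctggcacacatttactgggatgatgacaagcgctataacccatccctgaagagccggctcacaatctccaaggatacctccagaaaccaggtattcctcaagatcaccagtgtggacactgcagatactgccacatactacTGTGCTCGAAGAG
Igkv1-88: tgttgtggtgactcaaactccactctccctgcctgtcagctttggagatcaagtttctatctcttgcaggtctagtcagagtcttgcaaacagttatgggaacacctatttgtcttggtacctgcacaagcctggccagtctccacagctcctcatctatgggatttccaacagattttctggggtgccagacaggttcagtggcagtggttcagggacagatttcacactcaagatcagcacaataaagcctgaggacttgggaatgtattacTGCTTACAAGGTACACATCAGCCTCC
These 6 segments lie at 114788372 to 114788805 (Ighv1-26, minus strand), 68631963 to 68632442 (Igkv10-96, minus strand), 114048241 to 114048812 (Ighv11-2, minus strand), 67896172 to 67896642 (Igkv14-126, plus strand), 115647945 to 115648387 (Ighv8-12, minus strand) and 68862265 to 68863031 (Igkv1-88, minus strand). V segments are a multigene family of near copies. Of the 173 members, 87 have another member of their locus that is at least 95% identical (49 Ighv, 36 Igkv and 2 Iglv). Ighv1-26 is 97.3% identical to Ighv1-18 and has 4 members at or above 95%, so its value may include reads of its neighbours. Igkv17-127, Igkv1-117, Ighv1-80, Igkv9-120 and Ighv1-76, named further on, each have 1 such copy (95.2% to 97.9%). Ighv11-2 (nearest Ighv5-4, 77.6%), Igkv1-88 (nearest Igkv1-110, 85.3%), Igkv14-126 (nearest Igkv14-111, 90.9%), Ighv8-12 (nearest Ighv8-8, 94.7%) and Igkv10-96 (nearest Igkv10-94, 94.6%) are more distinct. How reads that fit several segments were counted is not given in the sources used here, and values of close pairs are uncertain.

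The V segments together were lowest in saline WT lungs, intermediate in saline KO lungs and highest in OVA KO lungs. With the offset removed, the summed level of all members was 22.6, 23.1 and 16.5 in saline WT 1 to 3, and 42.9, 141, 176 and 167 in OVA WT 1 to 4. It was 42.1, 55.8 and 45.5 in saline KO 1 to 3, and 530, 239, 247 and 255 in OVA KO 1 to 4. Every OVA library lay above every saline library of its genotype, and every KO library lay above every WT library of its treatment, although OVA WT 1 (42.9) fell within the range of the saline KO libraries. As group means the levels were 20.8 ± 3.71 (SD, n = 3) in saline WT, 132 ± 61.1 (n = 4) in OVA WT, 47.8 ± 7.13 (n = 3) in saline KO and 318 ± 142 (n = 4) in OVA KO. On the log2 scale the OVA libraries exceeded the saline libraries by 2.49 in WT (5.63-fold, within-group SD 0.77) and by 2.66 in KO (6.3-fold, SD 0.45). The KO libraries exceeded the WT libraries by 1.37 after OVA (2.59-fold, SD 0.78) and by 1.21 after saline (2.31-fold, SD 0.24). Without OVA WT 2 and OVA KO 1, the libraries richest in B cell markers, an omission chosen after seeing the data, the OVA differences were 2.40 in WT and 2.38 in KO, and the genotype difference after OVA was 1.19. The latter was 0.90 without OVA WT 1 and 1.10 to 1.57 without any other single OVA library. These are sums over the members and carry no test. In whole lung, more B lineage cells and more V transcript per cell cannot be told apart.

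**Figure D1:**
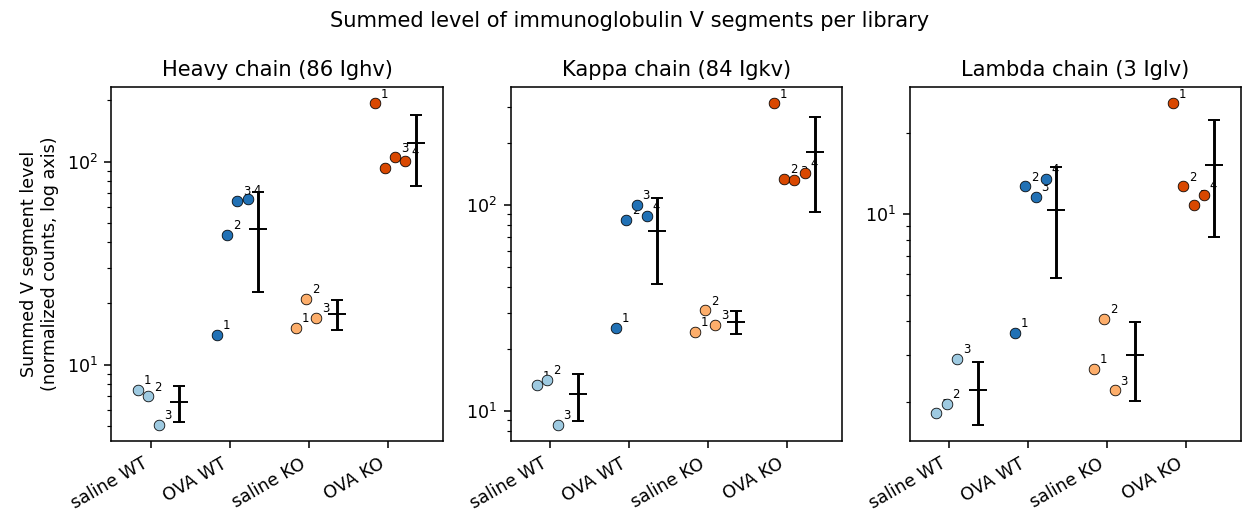
Summed level of the V segments of each locus in every library, in normalized counts on a log axis, with 1 point per library labelled by its replicate number. Horizontal bars and error bars give the group mean and SD (n = 3 for saline, n = 4 for OVA), and OVA KO 1 is the highest library in all 3 panels.

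Heavy, kappa and lambda segments contributed in different proportions to these sums. In WT, Ighv segments summed to 5.04 to 7.52 after saline and 14 to 65.1 after OVA, and in KO to 15.2 to 20.99 and 92.9 to 194. Igkv segments summed to 8.56 to 14.2 and 25.3 to 100.2 in WT, and to 24.3 to 30.7 and 132 to 311 in KO. The lambda share of the light chain V level was 12%, 12.2% and 25.3% in saline WT, 10.4% to 13.2% in OVA WT, 7.77% to 11.7% in saline KO and 7.59% to 8.65% in OVA KO. Each KO range lay below the WT range of the same treatment, and the 25.3% of saline WT 3 rests on the smallest library of V reads (1099 estimated reads). Heavy segments made up 30.1% to 33.2% of the V level in saline WT and 36.1% to 37.6% in saline KO, and 30.9% to 38.9% in OVA WT and 36.5% to 42.4% in OVA KO, where the genotypes overlapped.

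OVA and saline lungs of Mcemp1+/+ mice were compared first, to ask which V segments the allergen raises when MCEMP1 is present. Of 173 members, 151 passed the filter on low values (74 Ighv, 74 Igkv and 3 Iglv), and the 22 others reached at most 4.26 in any library. The filter asked for at least 0.2 ppm in at least 3 libraries, so a member could pass through a single OVA group. How many passed only through the group where they were high was not counted. The signs, medians and called directions of the tested members are therefore partly fixed by the filter in comparisons with such a group. In the limma fit over all genes, 21 of the 151 were higher after OVA and none was lower, at a Benjamini-Hochberg adjusted p under 0.05, against 4.36% of all genes called higher and 7.45% called lower. At an unadjusted p under 0.05 there were 54. The share of all genes at that unadjusted p was not counted. This count and the unadjusted counts of the comparisons below therefore have no background to be judged against. The 21 comprised 8 Ighv, 12 Igkv and 1 Iglv segments, and rose by 0.51 to 2.12 on the log2(value + 0.502) scale, which understates the change of low genes. The median change of the 151 was 0.55, against 0.01 over all genes. Without saline WT 1, 2 or 3 the count fell to 9, 7 and 7, and without OVA WT 3 to 11. The shares of all genes called in these and the later omissions and alternative fits are not given here. Their counts therefore have no background to be judged against. Over all 173 members, 77 (44.5%) were higher in every OVA library than in any saline library, against 10.1% of all genes. These values still held the offset, which was 0.0211 to 0.0237 in OVA WT and 0.0148 to 0.0181 in saline WT libraries. A gene without reads in all of them therefore counts as higher, which raises both shares.

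Igkv10-96, a kappa segment found in many mouse antibodies, was at 0.632, 0.736 and 0.27 in saline WT 1 to 3 and at 1.82, 2.54, 8.57 and 1.61 in OVA WT 1 to 4. All 4 OVA libraries lay above the 3 saline libraries, which was required for a segment to be named for a comparison. OVA WT 3 lay far above the other 3 OVA libraries. The log2 change of Igkv10-96 was 1.73 (SE 0.42, limma adjusted p = 0.018), a call that was lost without saline WT 3 (adjusted p = 0.082) and with a pseudocount of 2.5 ppm (0.058). Igkv8-24 rose by 1.95 (SE 0.46, limma adjusted p = 0.016), from 0.118, 0.109 and 0.105 to 0.372, 1.51, 4.33 and 3.17. Leaving out saline WT 2 (adjusted p = 0.058) or 3 (0.056) removed this call. Iglv1, the most used lambda segment of mice, was at 1.11, 0.995 and 2.08 after saline and at 2.12, 4.98, 9.57 and 11.9 after OVA (log2 1.82, SE 0.45, limma adjusted p = 0.02). The call did not survive omission of saline WT 1 (adjusted p = 0.068), of saline WT 2 (0.087) or of OVA WT 3 (0.05).

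The remaining named rises in WT rested on few libraries. Igkv14-111 rose by 2.12 (SE 0.62, limma adjusted p = 0.042) from 0.428, 0.525 and 0.24 to 0.697, 4.37, 2.62 and 11.8, and kept its call only without OVA WT 1 or without any of the 4 OVA KO libraries (adjusted p 0.055 to 0.13 in the 9 other omissions). Igkv17-127 rose by 1.93 (SE 0.49, limma adjusted p = 0.022) from 0.232, 0.17 and 0.164 to 0.62, 2.09, 1.94 and 6.26, and was past the threshold only with all 3 saline WT libraries present (adjusted p = 0.057, 0.077 and 0.073 without 1, 2 and 3). In both segments OVA WT 4 was the highest WT library. Both calls were also lost with a pseudocount of 2.5 ppm (adjusted p = 0.11 and 0.084), and a limma fit on the WT libraries alone called none of the 5 segments named for this comparison (adjusted p 0.057 to 0.097).

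The same comparison in Mcemp1-/- lungs asks which V segments rose without MCEMP1. Here 26 of the 151 tested members were higher and none was lower, against 0.21% of all genes called higher and 0.166% called lower, and 129 had an unadjusted p under 0.05. V segments made up 26 of the 48 genes called higher (54.2%). They comprised 14 Ighv and 12 Igkv segments with changes of 0.94 to 2.67, none of them overlapping between groups. The median change of the 151 was 1.15, against -0.01 over all genes. Members could pass the filter through the OVA KO libraries alone, so this median and the lack of lower calls are partly fixed by it. Over all 173 members, 114 (65.9%) were higher without overlap, against 5.62% of all genes. Without any 1 of the saline KO libraries the count fell to 6 (saline KO 1), 11 (saline KO 2) and 6 (saline KO 3), and without OVA KO 1 to 17.

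Ighv3-6, a heavy segment with no close copy in the table (nearest Ighv3-1, 93.3%), was at 0.418, 1.02 and 0.75 in saline KO 1 to 3 and at 6.98, 3.63, 3.48 and 6.62 in OVA KO 1 to 4. The groups were far apart, and the log2 change was 2.17 (SE 0.29, limma adjusted p = 0.0073). The call was lost without saline KO 1 (adjusted p = 0.061). Ighv14-2 went from 0.522, 0.516 and 0.418 to 7.02, 2.68, 5.83 and 3.62 (log2 2.34, SE 0.35, limma adjusted p = 0.013), and lost its call without saline KO 1 (adjusted p = 0.098), 2 (0.055) or 3 (0.077). Igkv10-94 had the largest called rise, from 0.179, 0.533 and 0.514 to 12.5, 5.24, 2.63 and 3.96 (log2 2.67, SE 0.39, limma adjusted p = 0.011), and lost its call without saline KO 1 (adjusted p = 0.10) or saline KO 3 (0.057), and on the KO libraries alone (0.10). All 3 segments were higher in each OVA KO library than in any saline KO library, as the rule for naming them required. Ighv14-2 is 97.0% identical to Ighv14-1 and Igkv10-94 97.2% to Igkv10-95, so their values may include reads of these copies.

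Igkv10-96 was at 1.51, 3.61 and 1.54 in saline KO and at 10.5, 11.7, 12.8 and 13.2 in OVA KO (12.1 ± 1.22, SD, n = 4). Its change of 2.29 (SE 0.42, limma adjusted p = 0.034) kept its call in 5 of 14 omissions, those of OVA WT 1 to 4 and of OVA KO 4 (adjusted p 0.052 to 0.21 in the 9 others). Igkv9-120 changed by 2.29 (SE 0.43, limma adjusted p = 0.037), from 0.346, 0.395 and 0.231 to 9.2, 3.79, 1.49 and 2.63. It lost its call in 8 of 14 omissions, namely of any saline library, OVA KO 1 or OVA KO 2 (adjusted p 0.055 to 0.2), with a pseudocount of 2.5 ppm (0.09) and on the KO libraries alone (0.14). The calls of WT and KO shared 10 segments, 47.6% of the 21 called in WT and 38.5% of the 26 called in KO. Tested as an interaction, the OVA response of KO minus that of WT was called for 0 of 151 members in limma (29 at an unadjusted p under 0.05), against 0.00438% of all genes called higher and 0% called lower, and its median was 0.53. Without OVA KO 2 it was called for 1 member.

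**Figure D2:**
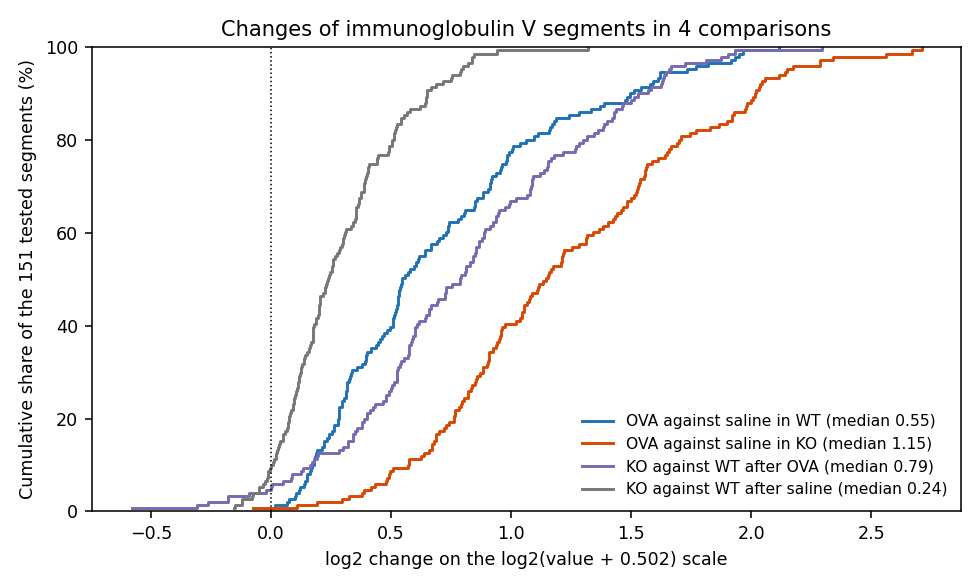
Cumulative distribution of the fitted log2 changes of the 151 tested V segments in 4 comparisons, on the log2(value + 0.502) scale, with the dotted line at no change. Of the 151 segments, 150, 150, 144 and 137 lie right of the line in the order of the legend, with medians of 0.55, 1.15, 0.79 and 0.24. A segment could pass the filter through a single OVA group, which by construction favours positive changes in comparisons of that group.

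The comparison of genotypes after OVA asks whether the loss of MCEMP1 changes the V level of challenged lungs. It was higher in Mcemp1-/- lungs. Of the 151 tested members 19 were higher in KO and none was lower, against 0.184% of all genes called higher and 0.206% called lower, and 90 had an unadjusted p under 0.05. V segments made up 19 of the 42 genes called higher (45.2%), 13 Ighv and 6 Igkv, with changes of 0.81 to 2.30. The median over the 151 was 0.79, against 0.01 over all genes, and 144 of 151 changes were positive. At least 10 estimated reads were held by 143 to 151 members in OVA KO and by 56 to 123 in OVA WT. Members could thus pass the filter through OVA KO alone, so these signs, the median and the lack of lower calls are partly fixed by it. Over all 173 members, 43 (24.9%) were higher without overlap, against 3.02% of all genes, and none was lower without overlap. Here the offset was lower in OVA KO (0.0143 to 0.0188) than in OVA WT libraries (0.0211 to 0.0237), so a gene without reads counts as lower. The calls depended on the shared estimate of the spread: a fit on the 8 OVA libraries alone called 0 members. Leaving out OVA KO 1 raised the count to 37. It fell to 7 without OVA WT 1 and 10 without OVA WT 4, to 12 without OVA KO 2 or 3, to 8, 10 and 9 without saline WT 1, 2 and 3, and to 9, 9 and 10 without saline KO 1, 2 and 3. Without OVA WT 2 and OVA KO 1 together it was 55.

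Ighv14-2 was the segment with the largest called difference. It was at 0.296, 1.36, 0.732 and 0.0841 in OVA WT 1 to 4 and at 7.02, 2.68, 5.83 and 3.62 in OVA KO 1 to 4, a log2 difference of 2.30 (SE 0.32, limma adjusted p = 0.008). Its lowest KO library lay above its highest WT library, as the rule for naming segments required. The call held in all 14 omissions of a library. Ighv3-6 differed by 1.81 (SE 0.27, limma adjusted p = 0.012), with 1.04, 0.951, 1.96 and 0.539 in OVA WT against 6.98, 3.63, 3.48 and 6.62 in OVA KO, and its call held in all 14 omissions too. Both were past the threshold only with the spread shared by all 4 groups (adjusted p = 0.16 and 0.15 on the OVA libraries alone).

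Ighv1-76 (0.209, 0.253, 1.16 and 1.53 in OVA WT, 4.67, 5.39, 4.61 and 1.95 in OVA KO), Ighv1-9 (0.209, 0.38, 1.32 and 0.449, then 5.97, 2.31, 3.39 and 2.52) and Ighv5-16 (0.116, 0.359, 0.137 and 0.118, then 4.33, 0.793, 1.25 and 1.78) differed by 1.93, 1.91 and 1.72. Their limma adjusted p-values were 0.036, 0.039 and 0.031. No library of 1 genotype overlapped the other in these segments, as the rule for naming them required. Ighv1-76 kept its call only without OVA WT 3, OVA WT 4, OVA KO 1 or OVA KO 4 (adjusted p 0.057 to 0.11 otherwise), Ighv1-9 only without OVA WT 3, saline KO 2 or OVA KO 1 (0.055 to 0.13 otherwise) and Ighv5-16 only without OVA WT 2, OVA KO 1, OVA KO 2 or OVA KO 3 (0.051 to 0.10 otherwise). On the OVA libraries alone their adjusted p-values in limma were 0.26, 0.18 and 0.26. Ighv1-9 was also lost with a pseudocount of 0.1 ppm (0.053) or array weights (0.055), and Ighv5-16 with one of 2.5 ppm (0.085).

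After saline the genotypes differed in the summed level but in no single segment by the test. None of the 151 tested members was called in limma, against 0.00876% of all genes called higher and 0.0745% called lower, and 10 members had an unadjusted p under 0.05. A fit on the 6 saline libraries alone called 1 member. The median difference was 0.24, against 0.01 over all genes. Over all 173 members, 69 (39.9%) were higher in each saline KO library than in any saline WT library, against 5.83% of all genes, and 3 were lower. Igkv10-96 was among the 69, at 1.51, 3.61 and 1.54 in saline KO against 0.632, 0.736 and 0.27 in saline WT (log2 difference 1.32, SE 0.45). Ighv3-6 was at 0.418, 1.02 and 0.75 against 0.177, 0.199 and 0.195 (0.80, SE 0.31). At these levels a segment of a saline WT library rests on few reads: only 31 to 54 of the 173 members had at least 10 estimated reads there, 67 to 84 in saline KO, 56 to 123 in OVA WT and 143 to 151 in OVA KO.

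Scaling all columns to equal totals moved the median of all genes to -0.17 for OVA in WT and to 0.11 between genotypes after OVA, and the V segments kept medians of 0.48 and 0.83, which is 0.65 and 0.73 above the median of all genes. The share of higher calls among all called genes moved with that scaling from 36.9% to 9.71% for OVA in WT, from 55.8% to 40.7% for OVA in KO and from 47.2% to 76.5% between genotypes after OVA.

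Next, the evenness of V usage was described as an effective number of segments, the number of equally used segments that would give the same Shannon diversity. Shares were computed per length, from values with the offset removed and divided by the exon length of each segment (338 to 501 bases, median 359). The effective number over all members was 99.8, 93.3 and 73.8 in saline WT, 87.7, 95.4, 70.4 and 45.1 in OVA WT, 98.6, 88.7 and 93.2 in saline KO and 77.6, 94.6, 97.2 and 96.2 in OVA KO. OVA WT 4 was the least even library and OVA WT 3 the next, and all other OVA libraries lay within the range of the saline libraries. Group means were 88.9 ± 13.5 (SD, n = 3), 74.6 ± 22.3 (n = 4), 93.5 ± 4.95 (n = 3) and 91.4 ± 9.28 (n = 4), and all 4 ranges overlapped. The effective number differed by -14.3 for OVA in WT (within-group SD 19.3), -2.10 for OVA in KO (SD 7.84), 16.8 between genotypes after OVA (SD 17.1) and 4.57 after saline (SD 10.2), none larger than the spread. Without OVA WT 4 the genotype difference after OVA was 6.92, and without the other OVA libraries, 1 at a time, it was 14.8 to 23.7. Counted over segments with at least 10 estimated reads, both OVA differences turned positive (23.9 in WT and 28.9 in KO), and the genotype differences were 30.7 after OVA and 25.7 after saline. That cut by construction drops segments from libraries with few V reads, so these differences cannot separate evenness from the number of V reads. The 5 leading segments held 16.7% to 26.6% of the V level in saline WT, 18.8%, 16.8%, 26.4% and 40.1% in OVA WT 1 to 4, 17% to 20.3% in saline KO and 26.6%, 18.1%, 17.1% and 18.3% in OVA KO 1 to 4. Only 8 segments covered 50% of the V level in OVA WT 4, against 15 to 27 in the other 13 libraries. Thinned to a common 899 estimated reads, the libraries would be expected to show 106 segments in OVA WT 4, 124 in OVA WT 3 and 132 to 144 in the 12 others.

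**Figure D3:**
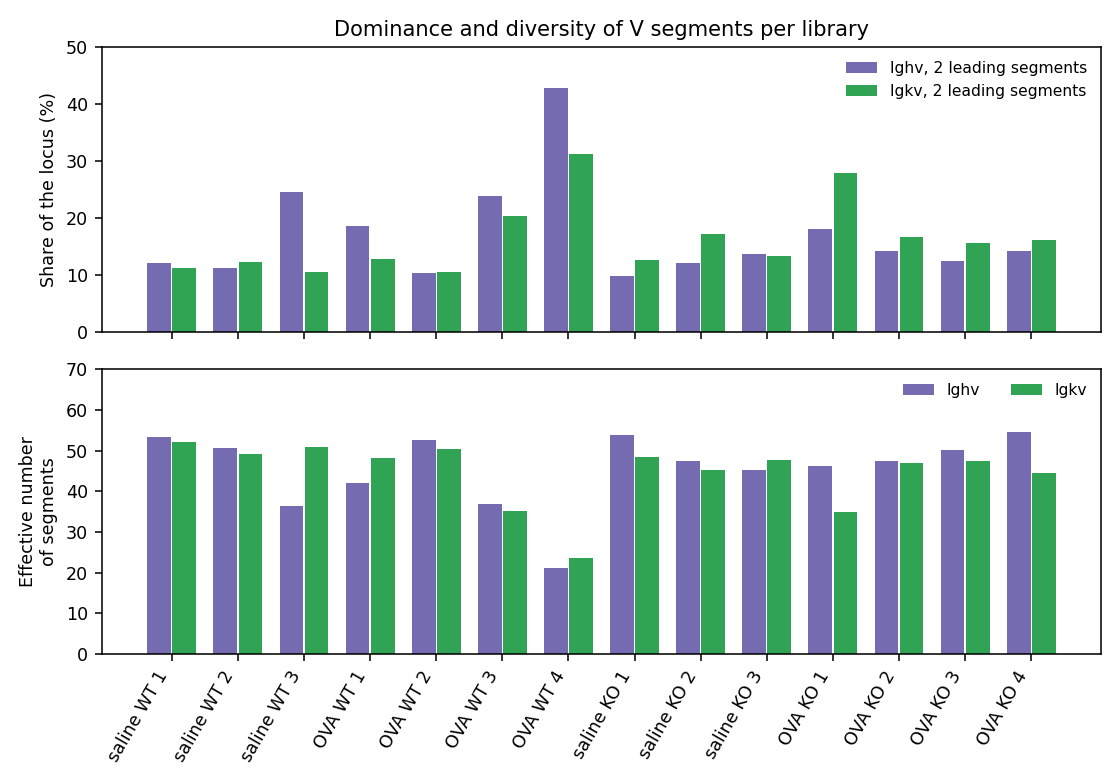
Share of the heavy (Ighv) or kappa (Igkv) V level held by the 2 leading segments of each library, in percent (top), and the effective number of segments of each locus (bottom), both per length. OVA WT 4 has the highest shares (42.8% of Ighv and 31.3% of Igkv) and the lowest effective numbers (21.1 and 23.5).

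Libraries that stood out did so through different segments. In OVA WT 4, Ighv8-12 held 22.9% of the heavy V level and Ighv1-80 held 19.9%, while in the other 13 libraries they held at most 3.64% and 3.27%. In reads, Ighv8-12 had 619 of 2751 estimated heavy V reads of that library (22.5%, 95% Wilson interval 21% to 24.1%, for counting error only). Its level was 0.441, 0.993, 1.39 and 14.7 in OVA WT 1 to 4, 0.0900 to 0.236 in saline WT and at most 3.72 in the KO libraries. In the kappa locus of OVA WT 4, Igkv1-88 held 17.9% (at most 1.2% elsewhere), Igkv14-111 13.4% (at most 6.32% elsewhere) and Igkv4-55, named after its values were seen, 10.8%. Igkv1-88 was at 0.186, 0.465, 0.296 and 15.5 in OVA WT 1 to 4 and at 0.0362 to 1.59 in all libraries of the other groups. OVA WT 4 was also the library with the most Ighg1, the constant region of IgG1 (833, against 23.5, 152 and 163 in OVA WT 1 to 3).

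In OVA WT 3, Ighv7-3 led the heavy locus with 13.8% (at most 4.72% elsewhere) and Igkv6-20 the kappa locus with 11.6% (at most 2.77% elsewhere). Ighv7-3 was at 0.0929, 0.401, 8.75 and 0.213 in OVA WT 1 to 4, at 8.09 in OVA KO 1 and at most 1.23 in the other libraries. Igkv6-20 was at 0.232, 0.591, 11.8 and 0.639 in OVA WT 1 to 4. In OVA WT 1, which had the lowest V level of the OVA libraries, Ighv9-3 led with 11% of the heavy V level (1.34% to 5.58% elsewhere). In OVA WT 2 no segment held more than 5.92% of the heavy or kappa locus, and the heavy effective number was 52.5. The OVA WT libraries thus had 4 different leading heavy segments (Ighv9-3, Ighv1-26, Ighv7-3 and Ighv8-12) and 4 different leading kappa segments (Igkv10-96, Igkv8-30, Igkv6-20 and Igkv1-88).

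In OVA KO 1, Ighv11-2 held 13.1% of the heavy V level and Igkv14-126 held 15.2% of the kappa V level. In mice these segments are known to be paired in B-1a cells, innate-like B cells whose antibodies bind phosphatidylcholine. Ighv11-2 was at 31.1 in OVA KO 1 and at 0.365, 0.109 and 0.557 in OVA KO 2 to 4. Outside OVA KO its highest values were 0.929 in OVA WT 2 and 0.207 in saline WT 1. Igkv14-126 was at 45.9 in OVA KO 1, at 0.476, 0.797 and 0.143 in OVA KO 2 to 4, and next highest in OVA WT 2 (2.24). In share, the heavy and the kappa segment had the same 3 top libraries, OVA KO 1, OVA WT 2 (1.68% and 2.7%) and saline WT 1 (2.05% and 2.53%).

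A second pair known for phosphatidylcholine binding in mouse B-1a cells, Ighv12-3 with Igkv4-91, was looked at after the values of the first pair were seen. Ighv12-3 was at 4.26 in OVA KO 1, at 0.866 in OVA WT 2 and at 0.105 or less in the 12 other libraries, and it did not pass the filter. By share of the heavy V level OVA KO 1 did not stand alone. Ighv12-3 held 2.34% there, 2.04% in OVA WT 2, 1.85% in saline WT 3 and 1.03% in saline WT 1. Igkv4-91 was at 13 in OVA KO 1, at 2.15 in OVA WT 2 and between 0.071 and 2 elsewhere. Igkv1-117 was the other leading kappa segment of OVA KO 1, with 12.6% of the locus and a level of 43, against 5.67 to 7.81 in OVA KO 2 to 4. Ighv11-2, Igkv14-126 and Igkv1-117 together held 120 of the 530 normalized counts of V segments in OVA KO 1 (22.6%), against 1.86% to 5.74% in the other libraries. Without these 3 segments OVA KO 1 was at 410, still above the 233 to 247 of OVA KO 2 to 4. OVA KO 1 was also the library with the most Ighm, the constant region of IgM (716, against 124, 67.2 and 87.8 in OVA KO 2 to 4).

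**Figure D4:**
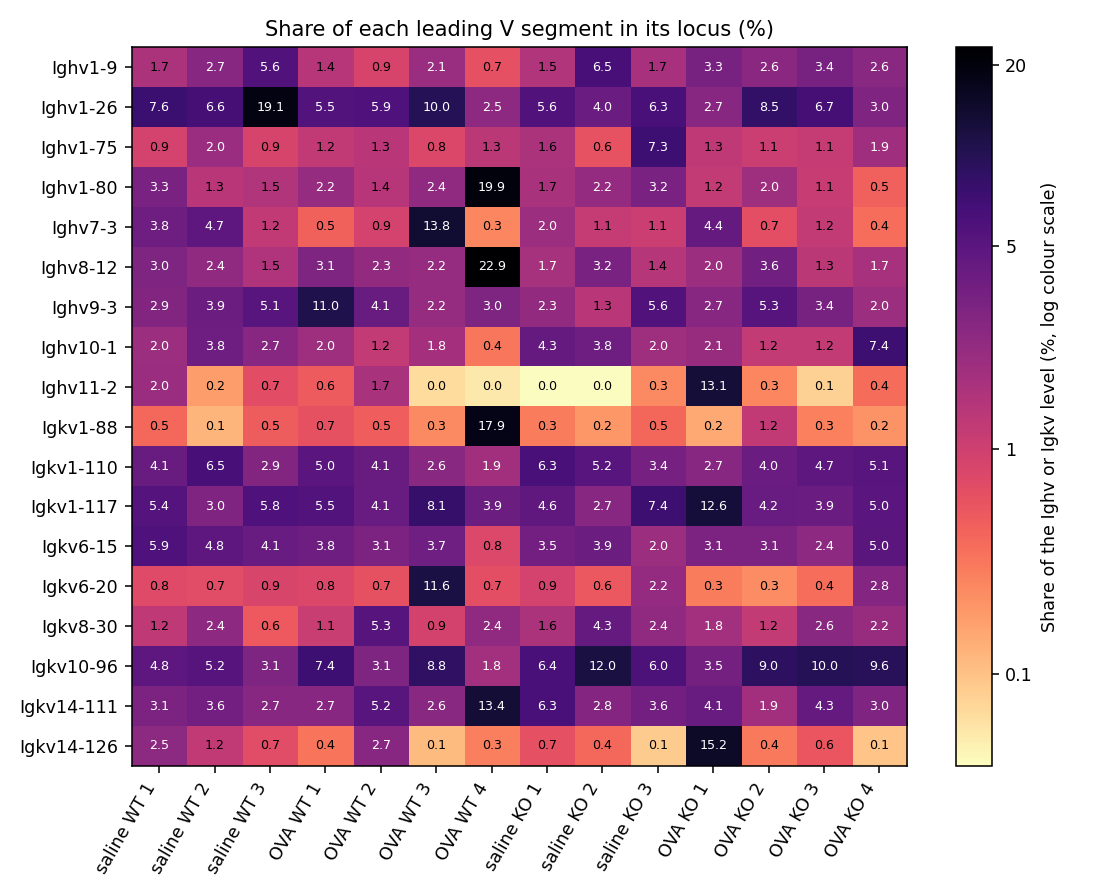
Share of each segment that led the heavy or kappa locus of a library, and of Ighv1-80 and Igkv14-111, in percent of the Ighv or Igkv level of each library, on a log colour scale. Ighv8-12, Ighv1-80 and Igkv1-88 are high in OVA WT 4, Ighv7-3 and Igkv6-20 in OVA WT 3, and Ighv11-2 and Igkv14-126 in OVA KO 1.

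Other segments led in many libraries. Ighv1-26 led the heavy locus in saline WT 1, 2 and 3, OVA WT 2, saline KO 1, OVA KO 2 and OVA KO 3, with a mean share of 6.71% over the 14 libraries. Its share in saline WT 3 (19.1%) rests on 62 of 336 estimated reads (18.5% of reads, 95% Wilson interval 14.7% to 22.9%). Its level was 0.555, 0.462 and 0.941 in saline WT, 0.765, 2.46, 6.19 and 1.58 in OVA WT, 0.832, 0.811 and 1.05 in saline KO and 4.85, 7.62, 6.71 and 2.87 in OVA KO, with limma adjusted p = 0.087 for OVA in WT and 0.071 for OVA in KO. Igkv10-96 led the kappa locus in OVA WT 1, saline KO 1, saline KO 2 and OVA KO 2, 3 and 4, with 8.98% to 10.02% in these 3 OVA KO libraries and 12.04% in saline KO 2. Ighv9-3, Ighv3-6, Ighv8-12 and Ighv1-80 followed Ighv1-26 by mean heavy share (3.92% to 3.14%), and Igkv1-117, Igkv14-111, Igkv1-110 and Igkv1-135 followed Igkv10-96 by mean kappa share (5.45% to 4.1%). Ighv8-12, Ighv1-80 and Igkv14-111 had their highest share in OVA WT 4. Without that library, an omission chosen after seeing the data, the mean shares were 2.27% for Ighv8-12, 1.84% for Ighv1-80 and 3.52% for Igkv14-111.

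Ighv1-75 led in saline KO 3 (7.33% of the heavy V level), Ighv1-9 in saline KO 2 (6.5%) and Ighv10-1 in OVA KO 4 (7.39%). Igkv6-15 led in saline WT 1 (5.92%), Igkv1-110 in saline WT 2 (6.51%) and Igkv1-117 in saline WT 3 (5.82%) and saline KO 3 (7.41%). In the kappa locus of OVA KO 2 and OVA KO 4 the runner-up was Igkv4-61, named after its values were seen, at 10.7 and 9.79 against 1.27 and 0.494 in OVA KO 1 and 3. Among lambda segments Iglv1 led in 13 of 14 libraries, with 48.5% to 87.1% of the locus. The exception was OVA WT 2, where Iglv2 held 46%. Iglv2 is 97.3% identical to Iglv1, so reads of this pair may be split between them. In mice Iglv2 is joined mostly to Iglc2 and Iglv1 to Iglc1 or Iglc3. Iglc2 was highest in OVA WT 2 (49.7, against 7.8 to 35.5 elsewhere) and Iglc1 in OVA WT 4 (68.3, against 2.85 to 34.6 elsewhere), the library with the highest Iglv1 share. Iglc3 was highest in OVA WT 2 (31.3, against 4.61 to 13.5 elsewhere), the library with the lowest Iglv1 share (37.8%).

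By family, Ighv1 with 47 of 86 heavy segments held 42.4% to 65.3% of the heavy V level, lowest in OVA KO 1, where Ighv11-2 led. The Ighv8 family held 23.7% in OVA WT 4 and 1.52% to 6.49% elsewhere, and the Ighv7 family 14.3% in OVA WT 3 and at most 5.24% elsewhere. In the kappa locus, the 7 segments of Igkv1 held 12.2% to 24.6% and the 21 of Igkv4 held 9.76% to 18.9%. The Igkv14 family held 19.7% in OVA KO 1 and 14.1% in OVA WT 4, against 3.57% to 8.67% elsewhere. By position, the 43 heavy segments nearer the constant regions held 26.9% in OVA WT 4, 59.7% in OVA KO 1 and 37.8% to 51.7% in the 12 others. The 42 nearer kappa segments held 29.8% in OVA KO 1 and 39.5% to 56.7% elsewhere.

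The overlap of V usage between 2 libraries, the summed smaller share over all segments, was 67.1% to 76.9% among saline WT, 67.7% to 72.5% among saline KO, 60.9% to 72.7% among OVA KO and 43.2% to 70.7% among OVA WT libraries, and 41.5% to 76% between groups. OVA WT 4 overlapped every other library by only 41.5% to 48.9%, and its lowest overlap was with OVA KO 1. Pairs share libraries and differ in depth, so the overlaps carry no test.

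Genes that go with V segments in antibody production were read from the same fit. Igha, the constant region of IgA, differed between genotypes under both treatments. It was at 10.6, 10.7 and 21.1 in saline WT, 65.4, 50.5, 256 and 134 in OVA WT, 97.2, 111 and 89.2 in saline KO and 712, 481, 588 and 444 in OVA KO. Every KO library lay above every WT library of the same treatment, with log2 differences of 2.84 after saline (SE 0.46, limma adjusted p = 0.041) and 2.40 after OVA (SE 0.40, adjusted p = 0.029). The saline call held only without OVA WT 1, 2 or 3 (adjusted p 0.059 to 0.25 in the 11 other omissions). It was also lost in limma with equal column totals (adjusted p = 0.065), a pseudocount of 2.5 ppm (0.076), no filter (0.056), no trend (0.055) and a replicate block (0.077). The OVA call was lost without OVA WT 1 (0.094), any saline KO library (0.051 to 0.057) or OVA KO 2, 3 or 4 (0.057 to 0.067), and on the OVA libraries alone (0.25).

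Igkc, the kappa constant region, was at 50.99 to 55.99 after saline and 128 to 667 after OVA in WT, at 105 to 116 and 421 to 1019 in KO, and rose after OVA in WT (log2 2.68, SE 0.42, limma adjusted p = 0.0015) in all 14 omissions. Jchain, which joins IgA and IgM into polymers, was at 6.27 to 13.5 and 47.4 to 330.3 in WT and at 53.5 to 60.1 and 251 to 578 in KO. Ighg1 was at 23.5, 152, 163 and 833 in OVA WT and at 41.2, 157, 112 and 2.26 in OVA KO 1 to 4, and OVA KO 4 combined a V level of 255 with little Ighg1. In that library Igha was at 444 and Ighg2c, the constant region of IgG2c, at 44.5. Of the 12 constant regions, 4 rose and none fell after OVA in WT (median 2.01), against 4.36% of all genes called higher and 7.45% called lower. In KO 3 rose (median 2), against 0.21% of all genes called higher. Only 1, Igha, was called between genotypes after each treatment (medians -0.15 after OVA and 0.01 after saline, against 0.01 over all genes). Of all genes, 0.184% were called higher in KO after OVA and 0.00876% after saline. Of 25 alternatives each, the KO calls were lost in 9 for Igkc, 8 for Ighg2b and 7 for Igha, and the WT calls in 1 for Ighg2b and in none for Igha, Igkc and Ighg1. The genotype calls of Igha were lost in 16 after saline and in 8 after OVA.

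**Figure D5:**
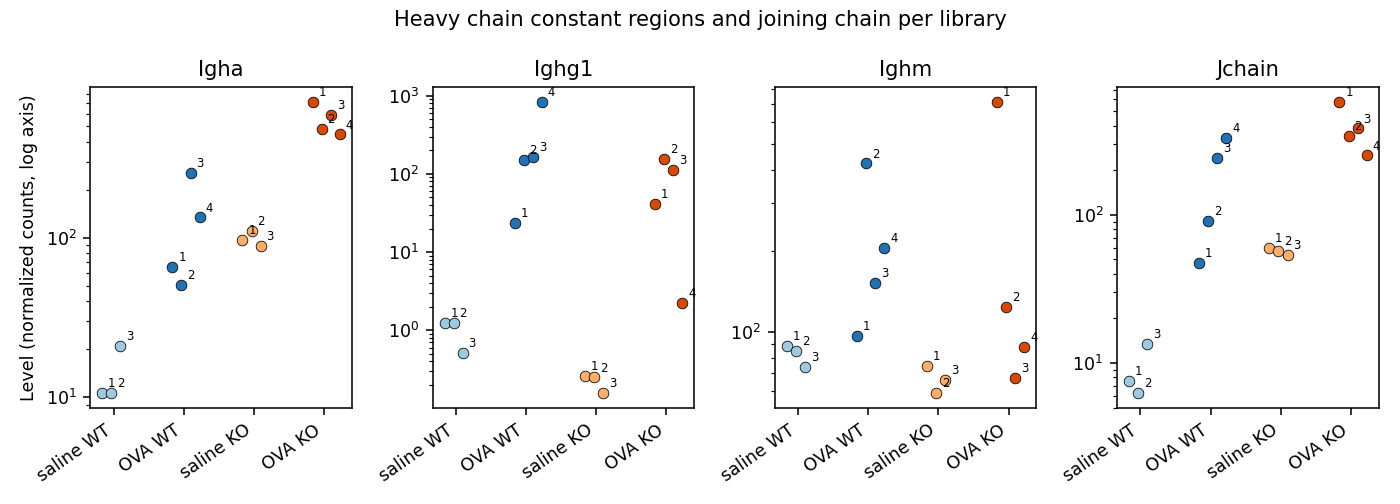
Levels of Igha, Ighg1, Ighm and Jchain in every library, in normalized counts on log axes, with 1 point per library labelled by its replicate number. Igha separates the genotypes under both treatments, Ighg1 is low in OVA KO 4 (2.26), and Ighm is highest in OVA KO 1 (716) and OVA WT 2 (422).

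The heavy V level per 100 counts of heavy constant regions (8 genes) was 3.87 to 5.71 after saline and 5.22 to 10.03 after OVA in WT, and 7.25 to 10.7 and 10.5 to 16.1 in KO, without overlap between genotypes under either treatment. The kappa V level per 100 counts of Igkc was 16.8 to 26.7 and 13.3 to 23.2 in WT and 20.99 to 27.3 and 24.02 to 33.9 in KO, and it overlapped between genotypes after saline. Of 10 B cell markers none was called in any comparison. Their median change was 0.62 for OVA in WT, 0.44 for OVA in KO, -0.40 between genotypes after OVA and -0.23 after saline. They summed to 157 to 160.01 after saline and 141 to 856 after OVA in WT, and to 112 to 158 and 124 to 267 in KO, where OVA KO 1 was the highest library for both these markers and the V level. Of 10 plasma cell genes, 3 rose after OVA in WT, among them Derl3 (log2 1.36, limma adjusted p = 0.027) and Prdm1 (0.59, adjusted p = 0.032), and Sdc1 fell by 0.83 (adjusted p = 0.00046). Over all genes, 4.36% were called higher and 7.45% lower in that comparison. In KO none of the 10 was called (median 0.45, against 0.44 in WT). Sdc1, which lung epithelium also makes, was the only one that differed between genotypes after OVA (0.53, adjusted p = 0.042). Of the 29 T cell receptor V segments in the table, 19 were tested and none was called in any comparison, with medians of 0.30 and 0.27 for OVA in WT and KO and of 0.02 between genotypes after OVA. Of 6 germinal centre genes, 3 recombination genes and 6 T cell genes, none was called. Of 12 genes of the B cell niche, Tnfsf13b, which encodes the survival factor BAFF, rose after OVA in WT (0.69, limma adjusted p = 0.0078), and no other call was made in the list.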

How the data were processed

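Lung RNA of 14 libraries was sequenced from KAPA mRNA HyperPrep libraries. Per the labels, reads were aligned to mm10 with STAR and quantified in Partek, with versions, read-sharing rules and strand setting not given in the sources used here. The signal values the authors deposited are normalized counts per gene, the unit of 1 table of 24270 genes. The members and lists were chosen with earlier results of these data known. Values were tested as log2(value + 0.502), 0.5 ppm of the mean column total, with limma 3.58.1 in R 4.3.3 in 1 fit of the 4 groups (trend and robust settings, Benjamini-Hochberg adjustment over all 22828 genes at or above 0.2 ppm in at least 3 libraries, threshold 0.05, two-sided). Sums and shares had the column minimum subtracted, shares were divided by GENCODE M21 exon length (matched for all 173 members), and both were described without a test. Wilson intervals cover counting error only. Segments were named for the highest mean share in a locus (up to 5), for leading a library's heavy or kappa locus, or for the up to 5 largest called, non-overlapping changes of a comparison. The gene positions in the table are of an unnamed build and were not used. Alternatives covered scaling, pseudocount, filter, trend, array weights, groups in the fit, a replicate block, offset, length and each library left out. V promoter motifs were not analysed here. Python 3.11.15, pandas 2.3.3, numpy 2.4.6, matplotlib 3.10.9 and Biopython 1.88 were used.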

Additional observations from a re-analysis of the deposited data

Results flagged for a closer look

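In each group of 4 OVA libraries the highest and lowest library were compared with the other 3. A library was taken to stand apart where its gap to the nearest other, divided by the range of the group, was above the 95% critical value of Dixon. For normally distributed values chance gives this in about 1 in 20 groups. Of 72 groups checked, 22 had such a library. The levels were not log-transformed, and some groups overlap, such as the summed V level and its Ighv, Igkv and Iglv parts. The 22 can therefore not be compared with that rate. OVA KO 1 stood apart in its summed V level (530), its Ighv (194), Igkv (311) and Iglv (25.8) sums, its effective number of segments (77.6) and the share of its 5 leading segments (26.6%). It also stood apart in Ighv11-2 (31.1), Ighv7-3 (8.09), Igkv1-117 (43.04), Igkv14-126 (45.9) and Iglv2 (7.87). OVA WT 4 did so in Ighv1-80 (12.5), Ighv8-12 (14.7) and Igkv1-88 (15.5). OVA WT 3 did so in Ighv7-3 (8.75), Igkv10-96 (8.57) and Igkv6-20 (11.8). OVA WT 2, the library rich in B and T cell markers, did so in Ighv11-2 (0.929), Ighv5-16 (0.359), Igkv14-126 (2.24) and Iglv2 (5.67). OVA KO 2 did so in Igkv1-88 (1.59). These segments were named partly for their high share in 1 library, so the number of groups that stand apart is not a sample of all segments.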

How the results depend on the processing

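Summed V differences kept their direction in all alternatives run. Counts of called segments moved by over 1.5 times in some. For OVA in WT (21), they were 9 with a pseudocount of 2.5 ppm, 33 with array weights and 12 with only the groups compared. For OVA in KO (26), they were 73 with array weights and 14 with only the groups compared. Between genotypes after OVA (19), they were 29 with array weights and 0 with only the groups compared. After saline (0), only the groups compared gave 1. Leaving out 1 library gave 7 to 29 for OVA in WT, 6 to 39 for OVA in KO, 7 to 37 between genotypes after OVA, 0 after saline and 0 to 1 for the difference of responses. Without OVA WT 2 and OVA KO 1 together, chosen after seeing the data, 55 differed between genotypes after OVA and 1 in the difference of responses. The shares of all genes called in these fits are not given here, so whether only the V segments moved cannot be told. With equal column totals, all genes called higher went from 995 to 467 for OVA in WT (V segments from 21 to 19). They went from 48 to 59 for OVA in KO (V from 26 to 33) and from 42 to 101 between genotypes after OVA (V from 19 to 27). With the replicate number as a block, the counts were 20, 25, 22, 0 and 0. The correlations of same-numbered libraries ran from -0.32 to 0.39. Differently numbered libraries were not set beside them, so whether the replicate numbers pair the samples cannot be decided from these values. Over segments with at least 10 estimated reads, which by construction drops segments from shallow libraries, the difference in effective number turned from -14.3 to 23.9 for OVA in WT and from -2.10 to 28.9 for OVA in KO, and went from 4.57 to 25.7 between genotypes after saline, and that in the share of the 5 leading segments turned from 5.24 to -3.83 for OVA in WT and went from -1.73 to -9.43 between genotypes after saline. Of 26 named tests, 6 held in every omission of 1 library.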
